A study of Mus musculus with 26 samples.

Results

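Hoxa7, Hoxa9, Hoxa10, Hoxa11 and Hoxa13 are the posterior genes of the mouse HoxA cluster. They are the 5 genes described here, of 55291 listed in each of the 2 count tables, and they were followed across all 10 groups of libraries. They were chosen by their place on the posterior side of the CTCF boundaries of the cluster and by measured values: Hoxa10 gained the most normalized counts of the 5 in embryonic stem cells (ESCs) that express CTCF without its first zinc finger. The values of that comparison therefore chose the genes and are given as a description, with no test.

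Hox genes encode homeodomain transcription factors that give the body axis and the limbs their positional identity. Within a cluster the genes lie in the order in which they are used along the axis, and they are switched on in sequence, anterior genes first, as Polycomb repression is lifted. CTCF, a zinc finger DNA-binding protein, holds the bases of chromatin loops together with cohesin, and in the HoxA cluster its sites lie between the genes that are on and the posterior genes that remain under Polycomb in cells of anterior identity. Hoxa7 and Hoxa9 act in the thoracic region, and Hoxa9 also acts in blood progenitors. Hoxa10 patterns the lumbar vertebrae and the uterus, Hoxa11 the forearm and the kidney, and Hoxa13 the hand plate and the terminal gut and urogenital tract.

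2 sets of mouse cell lines from the E14 ESC line were sequenced as rRNA-depleted total RNA, in 26 libraries. In the rescue lines, both endogenous Ctcf alleles carry a mini-auxin-inducible degron with eGFP (mAID-eGFP), OsTIR1(F74G) sits at Rosa26, an mCherry reporter sits at the Hb9 locus, and a Flag-Halo CTCF transgene that doxycycline switches on, either WT or ΔZF1 (without zinc finger 1), sits at Tigre. All 4 rescue groups received 1 µM 5-Ph-IAA to degrade endogenous CTCF and 1 µg/mL doxycycline for 24 h, the controls included, and each has 2 libraries. They are named by the rescue, WT or ΔZF1, and by the stage, ESC or NPC, where NPC stands for neural progenitor cells after 2 days of differentiation. The WT and ΔZF1 rescues are 1 clone each, so the clone and the mutation cannot be told apart. In the truncation lines, a self-cleaving peptide and eGFP cassette with an SV40 polyadenylation signal (pA), inserted on both alleles, cuts short Podxl or Grb10, whose RNAs the study took as CTCF partners. These lines and parental WT E14 cells were untreated and were sequenced as ESCs and as NPCs, with 3 libraries in each of 6 groups. The study derived the truncation lines as clones from single cells and the sample titles name no clone. The clone and the truncation therefore cannot be told apart either.

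The 8 rescue libraries held 6425179 to 28730435 assigned reads each and the 18 others 1907505 to 8845087. Ctcf reads, which cannot be divided between the degron-tagged and the introduced copy, were higher in ΔZF1 by 0.57 (log2) in ESCs and by 0.78 in NPCs. Podxl fell by 2.73 (log2) in ESC-Podxl-pA and by 3.45 in NPC-Podxl-pA, and Grb10 fell by 1.89 in ESC-Grb10-pA and by 3.86 in NPC-Grb10-pA. All 12 pluripotency markers were lower in NPC-WT than in ESC-WT. Of 9 neural progenitor markers tested, 5 were higher, Sox1 and Nes among them, and Sox2 was lower. Non-neural markers were present in NPC-WT too, with 8 of 11 extraembryonic endoderm markers and 8 of 8 surface ectoderm markers higher than in ESC-WT. These are RNAs of bulk cultures, in which fewer cells that express a gene and less RNA per cell cannot be told apart.

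The 5 genes lie side by side on the minus strand of chromosome 6 (GENCODE M21 gene models on GRCm38, the build also called mm10). Hoxa7 spans chr6:52214491-52221854, Hoxa9 chr6:52223100-52231089, Hoxa10 chr6:52231197-52240854, Hoxa11 chr6:52242106-52245810 and Hoxa13 chr6:52257694-52260880. Reads were counted without regard to strand, so antisense RNA cannot be told apart from these genes where exons overlap. The noncoding Hoxa11os covers 35.0% of the exon bases of Hoxa11, and Hoxaas3 covers 20.4% of those of Hoxa7. The microRNA gene Mir196b covers 1.52% of those of Hoxa9, and no exon base of Hoxa10 or Hoxa13 is shared with another gene.

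RefSeq (GRCm38.p6) gives 6 start sites for the 5 genes, since Hoxa10 has an outer and an inner start that lie 5.92 kb apart. The 250 bases before 4 of these starts, those of Hoxa9, Hoxa10 and Hoxa13, are shown because no annotated exon lies in them. Each runs 5′ to 3′ on the minus strand and ends 1 base before the start. Capitals mark AGGGGGC, the start of the CTCF core letters, and TTTAT, letters found in sites of Cdx and posterior Hox proteins, each searched on both strands. The windows are Hoxa9 at chr6:52227371-52227620, the inner Hoxa10 start at chr6:52234940-52235189, the outer Hoxa10 start at chr6:52240855-52241104 and Hoxa13 at chr6:52260881-52261130.
Hoxa9: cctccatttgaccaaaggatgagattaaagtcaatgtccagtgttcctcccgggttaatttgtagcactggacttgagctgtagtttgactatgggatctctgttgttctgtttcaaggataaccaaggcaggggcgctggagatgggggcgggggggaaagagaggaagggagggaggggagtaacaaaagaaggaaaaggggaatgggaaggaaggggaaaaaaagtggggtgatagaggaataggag
Hoxa10 inner start: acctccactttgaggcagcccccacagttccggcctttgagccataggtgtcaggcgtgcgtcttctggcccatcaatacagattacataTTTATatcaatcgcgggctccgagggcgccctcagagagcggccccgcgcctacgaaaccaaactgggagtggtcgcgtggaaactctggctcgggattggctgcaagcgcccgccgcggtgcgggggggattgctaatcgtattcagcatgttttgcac
Hoxa10 outer start: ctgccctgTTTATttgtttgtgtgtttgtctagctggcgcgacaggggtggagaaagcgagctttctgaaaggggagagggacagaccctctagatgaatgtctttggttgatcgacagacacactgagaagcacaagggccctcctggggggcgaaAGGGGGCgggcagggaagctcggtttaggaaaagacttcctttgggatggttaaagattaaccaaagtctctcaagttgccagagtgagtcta
Hoxa13: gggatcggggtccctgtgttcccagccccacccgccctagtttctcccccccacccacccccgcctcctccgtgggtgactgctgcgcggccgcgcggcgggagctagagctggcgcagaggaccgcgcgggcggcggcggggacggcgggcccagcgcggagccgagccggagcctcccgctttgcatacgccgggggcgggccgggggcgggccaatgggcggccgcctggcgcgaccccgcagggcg
The Hoxa13 window was the richest of the 6 in G and C, at 80% with 35 CpG dinucleotides, against 49.6% and 3 CpG for Hoxa9. The inner Hoxa10 window had 59.2% and 20 CpG, and the outer one 51.6% and 7 CpG. The windows of Hoxa7 and Hoxa11, not printed because annotated exons lie in them, had 54.8% with 7 CpG and 52.0% with 13 CpG. Over 32841 windows of all genes the median was 52.4% (quartiles 45.2% to 61.2%) with 6 CpG (quartiles 2 to 16).

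The longer letters AGGGGGCGC were in 0 of the 6 windows and in 1.11% of all windows. The shorter AGGGGGC, which the longer letters contain, was in 1 of 6, the outer Hoxa10 window, and in 9.43% of all windows. TTTAT was in 3 of 6, both Hoxa10 windows and that of Hoxa7, and in 37.3% of all windows. Such matches describe these letters in these windows only.

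In ESCs, all 5 posterior Hoxa genes had higher normalized counts in both ΔZF1 libraries than in either WT library, as did 27.5% of all genes tested. Normalized counts are reads scaled to a common library size with TMM factors, and the normalized counts of the 5 genes summed to 58.7 to 72.8 in ESC-WT and to 522 to 531 in ESC-ΔZF1. Of all genes tested, 1.29% were called higher in ESC-ΔZF1 by edgeR's quasi-likelihood test, which here means an adjusted p no greater than 0.05 with a log2 change of 0.5 or more. Nothing is read from these shares for the 5 genes, since this comparison chose them.

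Hoxa10 was counted at 4 and 14 reads in the ESC-WT libraries and at 177 and 170 reads in the ESC-ΔZF1 libraries. These were normalized counts of 10.8 and 16.1 in WT and of 229 and 202 in ΔZF1. The ΔZF1 libraries lay far above the WT libraries, with a log2 difference of 3.90 ± 0.28 (SE). Hoxa9, its neighbour on the anterior side, had 5 and 6 reads (13.5 and 6.90 normalized) in WT and 81 and 110 reads (105 and 131) in ΔZF1. The log2 difference of Hoxa9 was 3.69 ± 0.37 and the libraries did not overlap. Hoxa7 had 15 and 21 reads (40.4 and 24.2 normalized) in WT against 118 and 126 reads (153 and 150) in ΔZF1, a log2 difference of 2.34 ± 0.27.

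Hoxa11 and Hoxa13, at the posterior end, were counted at lower levels. Hoxa11 had no read in either ESC-WT library and 22 and 21 reads (28.5 and 25.0 normalized) in ESC-ΔZF1. Against a floor of 3 reads over the WT group, Hoxa11 was at least 11-fold higher in ΔZF1. Hoxa13 had 3 and 10 reads (8.09 and 11.5 normalized) in WT and 12 and 11 reads (15.5 and 13.1) in ΔZF1. Its log2 difference of 0.46 ± 0.65 was smaller than its SE, so that of the 5 genes Hoxa13 stood nearest to WT. The difference was smaller at Hoxa7 than at Hoxa9 and Hoxa10, which lay closer together than their SEs, and it was small at Hoxa13. Hoxa11, between Hoxa10 and Hoxa13, has only a lower bound. These values chose the genes and differences between genes were not tested, so no order along the cluster is read from them.

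**Figure D1:**
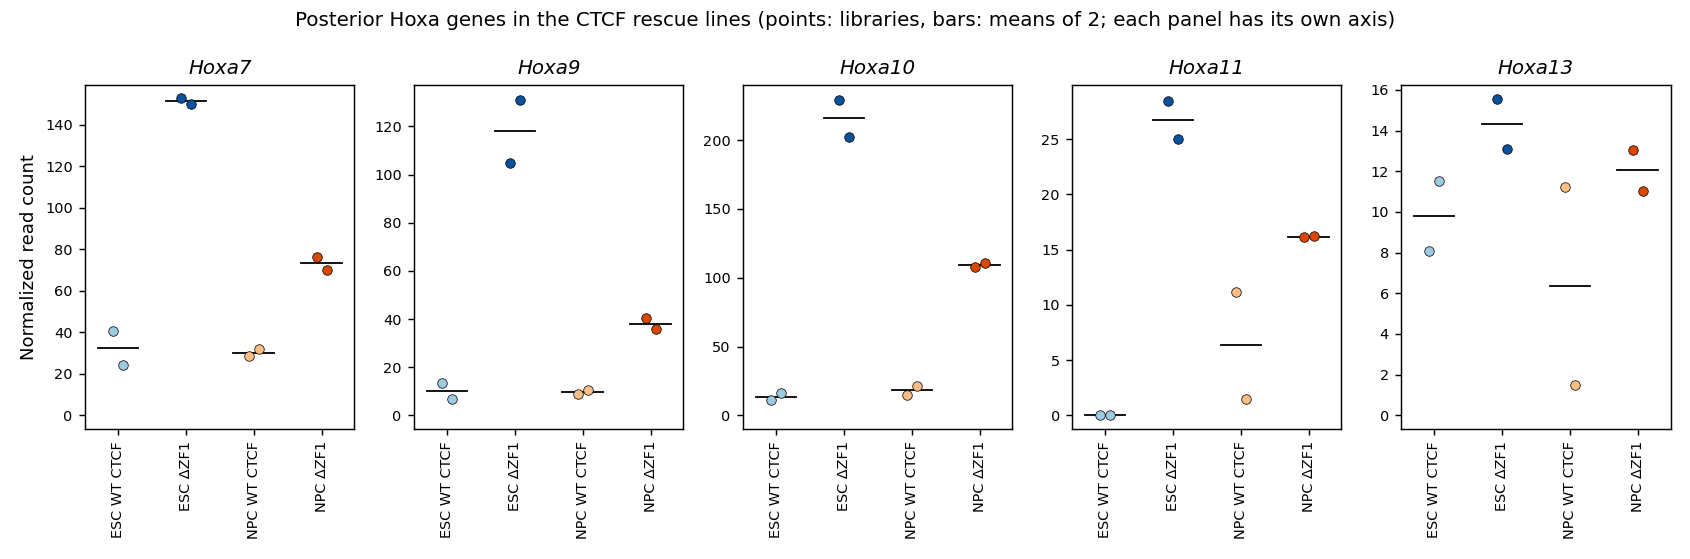
Normalized counts of the 5 posterior Hoxa genes in the 8 rescue libraries, 1 point per library, with a horizontal line at the mean of the 2 libraries of a group and a y axis of its own for each gene. Hoxa7, Hoxa9 and Hoxa10 sit higher in both ΔZF1 groups than in the WT groups of the same stage, Hoxa10 at 202 and 229 in ESC-ΔZF1 and at 108 and 111 in NPC-ΔZF1, while the 4 groups of Hoxa13 lie between 1.52 and 15.5.

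NPCs were not used to choose the genes, and there the effect of ΔZF1 was tested. Of the 5 genes, 3 were called higher in NPC-ΔZF1 than in NPC-WT, against 7.19% of all 16641 genes tested. All 5 passed the filter on low counts, which uses all 8 rescue libraries, those that chose the genes included. Hoxa9, Hoxa11 and Hoxa13 passed it through ΔZF1 libraries, where they were higher, which favours a call in that direction. Nothing is therefore concluded from setting these shares side by side. The genes called were Hoxa7, Hoxa9 and Hoxa10. The summed normalized count of the 5 genes was 66.7 to 74.7 in NPC-WT and 244 to 254 in NPC-ΔZF1. Hoxa11 and Hoxa13 did not pass the test.

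Hoxa10 had 20 and 14 reads in the NPC-WT libraries (14.9 and 21.2 normalized) and 173 and 171 reads in the NPC-ΔZF1 libraries (108 and 111 normalized). Both ΔZF1 libraries were above both WT libraries, and Hoxa10 rose by 2.65 ± 0.25 (log2 fold change ± SE, n = 2 per group; edgeR adjusted p = 0.000178). Hoxa9 had 12 and 7 reads (8.97 and 10.6 normalized) in WT and 65 and 55 reads (40.4 and 35.7) in ΔZF1. It rose by 1.98 ± 0.34 (adjusted p = 0.00389). Hoxa7 had 38 and 21 reads (28.4 and 31.8 normalized) in WT and 123 and 108 reads (76.5 and 70.1) in ΔZF1. It rose by 1.30 ± 0.25 (adjusted p = 0.00579), and without NPC-ΔZF1 replicate 1 its log2 fold change of 1.22 had an adjusted p of 0.0584. Across the 3 genes that passed, the order of the changes was that of their positions, Hoxa7, Hoxa9 and Hoxa10 from the smallest to the largest. The step from Hoxa9 to Hoxa10 was about as large as their combined errors, and the differences between genes were not tested.

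The NPC-WT libraries differed between themselves at the posterior end. Hoxa11 had 15 reads in replicate 1 and 1 read in replicate 2 (11.2 and 1.52 normalized), against 26 and 25 reads (both 16.2 normalized) in NPC-ΔZF1. Both ΔZF1 libraries were above both WT libraries, with a log2 fold change of 1.08 ± 0.58 (adjusted p = 0.213). Hoxa13 had the same 15 and 1 reads in NPC-WT, and 21 and 17 reads (13.1 and 11 normalized) in NPC-ΔZF1. The groups of Hoxa13 overlapped, with a log2 fold change of 0.66 ± 0.58 (adjusted p = 0.445). Without NPC-WT replicate 1 both genes were called higher, Hoxa11 at 3.31 (adjusted p = 0.0121) and Hoxa13 at 2.88 (adjusted p = 0.0446), so 1 library decided whether 3 or 5 of the genes passed.

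The order of the 5 genes among themselves was compared per length, in RPKM, reads scaled by the length of the exons and by the size of the library. In ESC-WT, Hoxa7 was first at 0.637 ± 0.227 (SD, n = 2). Hoxa10 at 0.233 ± 0.0653, Hoxa13 at 0.225 ± 0.0554 and Hoxa9 at 0.104 ± 0.0472 followed, and Hoxa11 was at 0. Hoxa10 and Hoxa13 lay within each other's spread. In ESC-ΔZF1, Hoxa10 was first at 3.74 ± 0.328 RPKM, ahead of Hoxa7 at 2.99 ± 0.0383, Hoxa9 at 1.20 ± 0.188, Hoxa11 at 0.663 ± 0.061 and Hoxa13 at 0.329 ± 0.0396. Each neighbour in that order was further from the next than the SDs.

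Hoxa7 was also first in NPC-WT, at 0.594 ± 0.0478 RPKM, followed by Hoxa10 at 0.314 ± 0.0769. Hoxa11, Hoxa13 and Hoxa9 came last, at 0.158 ± 0.170, 0.146 ± 0.157 and 0.0995 ± 0.0118, and could not be ordered given their spread. In NPC-ΔZF1, Hoxa10 was first again at 1.89 ± 0.0416, above Hoxa7 at 1.44 ± 0.0891. Hoxa11 at 0.401 ± 0.00099 and Hoxa9 at 0.387 ± 0.0339 did not differ beyond their spread, and Hoxa13 was last at 0.276 ± 0.0328. Hoxa10 thus ranked first per length in both ΔZF1 groups. In both WT groups its mean was second, but not clear of the spread of the genes below it. The ESC values chose the genes, so the rank in ESC-ΔZF1 is a description only.

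Between the stages, the ΔZF1 levels were lower in NPCs than in ESCs and the WT levels were similar in size. These values share the ESC libraries with the comparison that chose the genes and are given without a test. In NPC-ΔZF1 all 5 genes were below both ESC-ΔZF1 libraries, as were 39.1% of all genes tested (16.9% were called lower), with log2 differences of -1.05 for Hoxa7, -1.63 for Hoxa9, -0.98 for Hoxa10, -0.72 for Hoxa11 and -0.24 for Hoxa13. From ESC-WT to NPC-WT, Hoxa7, Hoxa9, Hoxa10 and Hoxa13 overlapped, at log2 differences of -0.01, 0.08, 0.26 and -0.44. Hoxa11, with no read in ESC-WT, was at least 3.31-fold higher in NPC-WT, and 15 of its 16 reads there were in replicate 1. Of all genes tested, 22% were called higher in NPC-WT.

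The anterior and central HoxA genes were compared as the nearest relatives of the 5. Hoxa6, just outside the set on the anterior side, had no read in ESC-WT and 1 and 3 reads in ESC-ΔZF1. In NPCs it had 3 and 0 reads with WT and 7 and 11 reads with ΔZF1. It did not pass the filter, and the ratio of NPC-ΔZF1 to NPC-WT was 3.81 with a 95% counting interval of 1.11 to 20.2. In NPCs, 1 of the 4 anterior and central genes of the list tested, Hoxa2 to Hoxa5, was called higher in ΔZF1, and the list's median change was 0.55 (log2), beside a median of 0.00 over all genes. Hoxa5, next in line, rose by 1.08 ± 0.20 (adjusted p = 0.00537). Hoxa2 (0.72, adjusted p = 0.0755), Hoxa3 (0.19, adjusted p = 0.421) and Hoxa4 (0.38, adjusted p = 0.418) did not pass. The count of 1 was 0 without NPC-ΔZF1 replicate 1.

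In ESCs, 2 of the same 4 genes were called higher in ΔZF1, Hoxa3 at 2.14 ± 0.27 (adjusted p = 0.00786) and Hoxa5 at 2.54 ± 0.32 (adjusted p = 0.00755). Hoxa2 at 0.66 (adjusted p = 0.513) and Hoxa4 at 1.55 (adjusted p = 0.120) did not pass. Hoxa3 and Hoxa5 lie on the anterior side, so higher levels in ESC-ΔZF1 were not limited to the posterior side of the cluster. The posterior Hoxa genes were not tested in ESCs, since that comparison chose them, and none of them counts as called there. The count of all genes called in ESCs, 601, was 8 to 21 when any of the 4 ESC libraries was left out.

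**Figure D2:**
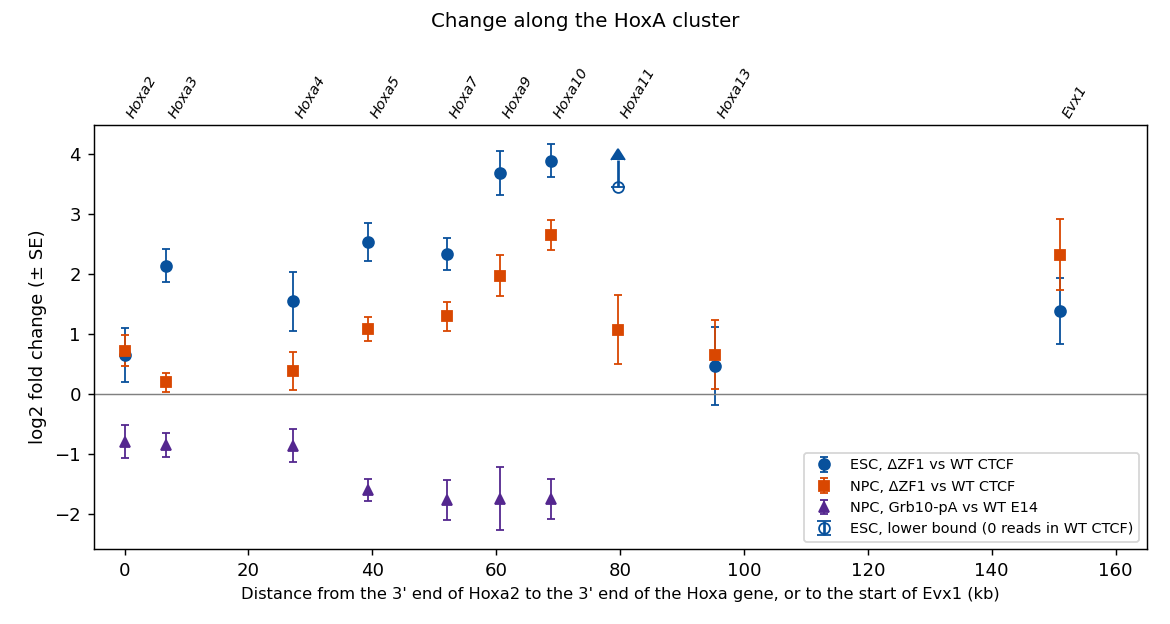
Log2 fold change (bars of 1 SE) of Hoxa genes and Evx1 against their distance in kb from the 3′ end of Hoxa2, for ΔZF1 over WT in ESCs (circles) and NPCs (squares) and for Grb10-pA over WT E14 in NPCs (triangles), with the lower bound of Hoxa11 in ESCs as an open circle. In ESCs the values reach 3.69 at Hoxa9 and 3.90 at Hoxa10 and are 2.54 at Hoxa5 and 2.14 at Hoxa3, and in NPCs the highest coding gene is Hoxa10 at 2.65, with Hoxa5 at 1.08 and Hoxa3 at 0.19.

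Noncoding and flanking genes of the locus were listed as well, and 4 of the 10 tested were called higher in NPC-ΔZF1 and 0 lower, with a median log2 fold change of 0.60. Halr1, a noncoding RNA gene beyond the anterior end, rose by 1.88 ± 0.17 (adjusted p = 0.000173). Evx1, a homeobox gene beyond Hoxa13, had 2 and 3 reads in NPC-WT and 18 and 24 in NPC-ΔZF1, and rose by 2.33 ± 0.59 (adjusted p = 0.0214). Skap2 and Snx10, coding genes of the anterior flank, rose by 0.64 (adjusted p = 0.00835) and 0.93 (adjusted p = 0.00486). Called genes thus lay on both outer sides of the posterior block, but on the posterior side this was Evx1 alone, on few reads. Evx1 passed the filter only through ΔZF1 libraries, where it was higher, which favours a call in that direction. The count of 4 was 1 without NPC-ΔZF1 replicate 1, 2 without NPC-ΔZF1 replicate 2 and 1 with only the 2 groups fitted.

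Among the noncoding genes and flanks that did not pass in NPCs, Hotairm1 was at 0.28, Hoxaas2 at 0.56, Hoxaas3 at 1.11 (adjusted p = 0.0983), Tax1bp1 at 0.20 and Jazf1 at -0.64 (adjusted p = 0.138). Hibadh, at 0.40, had an adjusted p of 0.0212 but a fold change under the limit. Hoxa11os, whose exons overlap Hoxa11, had 1 and 0 reads in ESC-WT against 14 and 3 in ESC-ΔZF1. Its NPC counts were 2 and 0 reads with WT and 14 and 17 with ΔZF1. Its reads and those of Hoxa11 cannot be told apart in the shared exons. Hottip, read from the posterior end of the cluster, had at most 3 reads in any rescue library, and Evx1os had at most 13. In ESCs only Halr1 of this list was called, higher in ΔZF1 by 0.90 (adjusted p = 0.0209).

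The posterior genes of the other Hox clusters are paralogs of the 5. Of 12 tested in NPC-ΔZF1, 5 were called higher and 0 lower, with a median log2 fold change of 0.96. Hoxc8 at 2.62 (adjusted p = 0.00341), Hoxc9 at 2.31 (adjusted p = 0.0133) and Hoxb8 at 1.40 had the largest called changes of the list. Hoxc8 and Hoxc9 passed the filter only through NPC-ΔZF1 libraries, where they were higher, which favours a call in that direction. The count was 1 with DESeq2, 3 with only the 2 groups fitted, and 1 when either NPC-ΔZF1 library was left out. Of 9 anterior and central genes of those clusters, 3 were called higher, Hoxb2 at 2.16, Hoxb1 at 1.44 and Hoxc4 at 1.13, and 1 with DESeq2. Hoxb2 too needed NPC-ΔZF1 libraries to pass the filter. In ESCs, edgeR called 0 of these 12 and 0 of these 9 genes in either direction, with 3 and 0 at an unadjusted p under 0.05.

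The partners and regulators of the posterior Hoxa proteins were read from lists. Of 9 Hox cofactors, which bind DNA together with Hox proteins, 2 were called higher in NPC-ΔZF1, Meis2 at 1.09 (adjusted p = 0.00686) and Pknox2 at 0.51. Both calls were lost when either NPC-ΔZF1 library was left out. Of 12 caudal inducers, signals and Cdx factors that switch on posterior Hox genes in the embryo, 4 were called higher, led by Fgf8 at 3.27, Cdx4 at 1.80 and Cdx1 at 1.46, and the list's median was 0.08. Without NPC-ΔZF1 replicate 1 the count was 2. In ESCs, 1 of the 12 caudal inducers was called higher, Cdx1.

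Of 30 Polycomb genes, whose products repress Hox clusters, 1 was called higher in NPC-ΔZF1, Bmi1 at 0.92, and 6 lower, led by Phf19 at -1.08, Ezh1 at -0.87 and Cbx8 at -0.70. The Polycomb list's median was -0.13, and in ESCs edgeR called 0 of the 30, with 5 at an unadjusted p under 0.05. Without NPC-WT replicate 1 the counts were 5 higher and 11 lower, and when either NPC-ΔZF1 library was left out they were 0 and 2. Of 15 Trithorax and H3K27 demethylase genes, which counter Polycomb, 3 were called higher and 1 lower in NPC-ΔZF1, and 0 in either direction when either NPC-ΔZF1 library or NPC-WT replicate 2 was left out or only the 2 groups were fitted. Without NPC-WT replicate 1 there were 4 in each direction. Of 13 boundary factors, 2 were called higher, Ctcf at 0.78 and the cohesin subunit gene Stag2 at 0.67. That count was 7 without NPC-WT replicate 1 and 1 when any of the other 3 NPC libraries was left out.

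Markers of other cell types moved together with the posterior Hoxa genes in NPC-ΔZF1. All 11 extraembryonic endoderm markers tested were called higher, with a median log2 fold change of 2.68, among them Ttr at 4.12, Cubn at 3.61 and Sox17 at 3.16. Their summed normalized counts were 3435 to 4006 in NPC-WT, where Apoa1 was at 0 reads, and 33223 to 34708 in NPC-ΔZF1. Surface ectoderm markers went the other way, with 5 of 8 called lower, Krt8 at -1.77 among them, and sums of 69821 to 93803 in NPC-WT and 32916 to 34498 in NPC-ΔZF1. Of 9 neural progenitor markers 4 were called higher and 1 lower, of 12 mesoderm and caudal epiblast markers 5 higher and 2 lower, of 12 pluripotency markers 2 higher and 1 lower, and of 3 motor neuron and spinal cord markers 0 in either direction (edgeR and DESeq2, 2 at an unadjusted p under 0.05). The part of these cells in the rise of Hoxa7, Hoxa9 and Hoxa10 was not tested. In ESCs, where those genes were also higher in ΔZF1, the endoderm sums were 563 to 1342 in WT and 548 to 910 in ΔZF1, and 1 of the 11 markers was called higher, Sox7. The sums of mesoderm and caudal epiblast markers were higher in ESC-ΔZF1, 1458 to 1491 in WT and 2842 to 3057 in ΔZF1. The median log2 change of that list was 0.09, with 10 of the 12 tested not called. Eomes at 1.00 (edgeR adjusted p = 0.0144) and Cdx1 at 1.28 (adjusted p = 0.0154) were called higher and 0 lower. Sox1 of the neural and Tfap2a of the surface ectoderm markers were also called higher in ESCs. The part of these cells in the ESC values of the 5 genes was not tested.

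The genes whose levels followed Hoxa10 most closely over the 8 rescue libraries were looked up by Pearson correlation of log2 CPM, over 1857 genes outside the HoxA locus. These were the genes, of 16641 tested, that met lower limits on mean count and on range. Genes of the locus did not have to meet these limits. The closest outside genes were Tll1 (r = 0.863), Klhdc7a (0.853), Pou4f2 (0.853), Eomes (0.825) and Apom (0.805), and 0 of the 1857 were above 0.9. By rank, Eomes left the first 5. The 8 libraries form 4 groups, so the coefficients describe group patterns, and the libraries differ in depth. Klhdc7a had mean normalized counts of 43.2 ± 3.95 (SD, n = 2) with WT and 291 ± 6.66 with ΔZF1 in ESCs, and of 31.3 ± 7.23 and 60.8 ± 8.94 in NPCs, so it was high in ESC-ΔZF1 and low elsewhere. Pou4f2, a transcription factor gene of sensory neurons, had 74.9 ± 3.03 and 211 ± 25.7 in ESCs and 28.7 ± 10.9 and 182 ± 1.24 in NPCs and was high in both ΔZF1 groups.

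Within the locus, Hoxa9 (r = 0.949) and Hoxa7 (0.942) had higher r with Hoxa10 than any of the 1857 genes kept outside it. By rank they were at 0.786 and 0.810, below Klhdc7a and Pou4f2 at 0.857, while Hoxa11 was above these at 0.929. These coefficients rest in part on the ESC-ΔZF1 libraries that chose the genes. The Pearson r was 0.865 for Hoxa11, 0.834 for Evx1, 0.674 for Hoxa5, 0.654 for Halr1, 0.492 for Hoxa13 and 0.375 for Hoxa3. Hoxa13 thus had the lowest r with Hoxa10 of the posterior genes, lower than Evx1 beyond it.

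The truncation lines asked whether loss of most of the Podxl or Grb10 RNA moved the same genes in cells whose Ctcf gene was not edited. The Ctcf RNA itself was lower in ESC-Grb10-pA, by 0.64 (log2, adjusted p = 1.03e-06). The 5 genes were counted at few reads there: at most 37 in any library for Hoxa7, Hoxa9 and Hoxa10, and at most 13 for Hoxa13 and 4 for Hoxa11. Hoxa7, Hoxa9 and Hoxa10 passed the filter, and Hoxa11 and Hoxa13 did not. The summed normalized count of the 5 genes was 37.5 to 43.5 in ESC-WT E14, 64.5 to 87.6 in NPC-WT E14, 43.9 to 61.1 in NPC-Podxl-pA and 23.6 to 26.3 in NPC-Grb10-pA. NPC-Grb10-pA was thus the NPC group with the lowest sums, below every library of the other NPC groups. The Podxl-pA and Grb10-pA comparisons share their WT E14 libraries.

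In NPCs, Hoxa7, Hoxa9 and Hoxa10, the 3 genes that passed the filter, were called lower in Grb10-pA. Of all 13268 genes, 8.64% were called lower and 7.9% higher. Hoxa9 passed the filter only through NPC-WT E14 and NPC-Podxl-pA libraries, where it was higher, which favours a fall in Grb10-pA. Hoxa13, which was not tested, had more reads in Grb10-pA. Hoxa7 had 15, 37 and 22 reads in NPC-WT E14 (22.6, 26.4 and 34.6 normalized) and 14, 9 and 9 reads in NPC-Grb10-pA (7.35, 10.5 and 7.18 normalized). The groups did not overlap and Hoxa7 fell by 1.76 ± 0.33 on the log2 scale (n = 3 per group; edgeR adjusted p = 0.000233). Hoxa10 had 26, 37 and 13 reads (39.3, 26.4 and 20.4 normalized) in WT E14 and 13, 9 and 11 reads (6.82, 10.5 and 8.77) in Grb10-pA. It fell by 1.76 ± 0.33 (adjusted p = 0.00027) without overlap.

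Hoxa9 had 14, 22 and 3 reads (21.1, 15.7 and 4.72 normalized) in NPC-WT E14 and 10, 1 and 6 reads (5.25, 1.16 and 4.79) in NPC-Grb10-pA. It fell by 1.75 ± 0.52 (adjusted p = 0.0134), with WT E14 replicate 3 inside the range of the Grb10-pA libraries. The Hoxa9 call did not hold with DESeq2 (adjusted p = 0.0624), nor without WT E14 replicate 1 (adjusted p = 0.0702) or replicate 2 (adjusted p = 0.0862). Hoxa11 had 2, 4 and 2 reads in WT E14 and 1, 0 and 3 in Grb10-pA. Hoxa13 had 1 read in each WT E14 library and 7, 3 and 4 reads in Grb10-pA, a ratio of 3.14 with a 95% counting interval of 0.875 to 17.0. Hoxa13 was therefore the gene of the 5 whose reads were more numerous in NPC-Grb10-pA, with an interval that includes no difference.

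**Figure D3:**
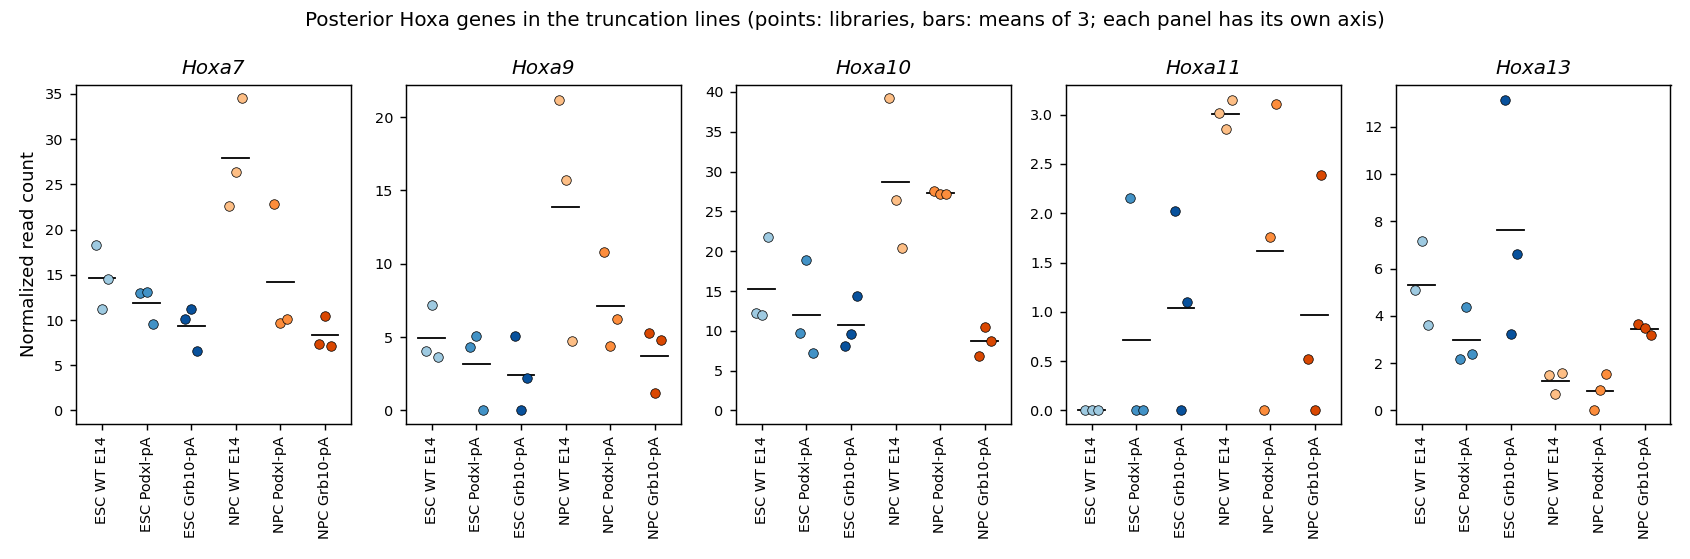
Normalized counts of Hoxa7, Hoxa9, Hoxa10, Hoxa11 and Hoxa13 in the 18 libraries of the truncation experiment, 1 point per library, with a horizontal line at the mean of the 3 libraries of a group and a y axis of its own for each gene. For Hoxa7 and Hoxa10 the 3 NPC-Grb10-pA libraries, at 6.82 to 10.5, lie below the 3 NPC-WT E14 libraries, at 20.4 to 39.3.

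In NPC-Podxl-pA, 0 of the 3 genes were called by edgeR or DESeq2, and 2 had an unadjusted p under 0.05, where 0.55% of all genes were called in either direction. Hoxa10 had 23, 31 and 35 reads (27.6, 27.2 and 27.2 normalized), inside the range of WT E14, with a log2 fold change of -0.05 ± 0.28 (adjusted p = 0.975). Hoxa7 had 19, 11 and 13 reads (22.8, 9.66 and 10.1 normalized), with a log2 fold change of -1.03 ± 0.31 (adjusted p = 0.168). Replicate 1 of NPC-Podxl-pA stood above the other two for Hoxa7, and without it Hoxa7 was called lower at -1.47 (adjusted p = 0.0448). Hoxa9 had 9, 5 and 8 reads (10.8, 4.39 and 6.22 normalized), with a log2 fold change of -1.06 ± 0.50 (adjusted p = 0.469). Hoxa11 had 0, 2 and 4 reads and Hoxa13 0, 1 and 2.

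In ESCs, neither truncation gave a call among the 3 genes with edgeR, and none had an unadjusted p under 0.05. DESeq2 did not call Hoxa7 or Hoxa10 and gave no adjusted p for Hoxa9. For ESC-Grb10-pA, where 9.09% of all genes were called in either direction, the log2 fold changes were -0.65 ± 0.40 for Hoxa7 (adjusted p = 0.294), -0.92 ± 0.77 for Hoxa9 (adjusted p = 0.473) and -0.40 ± 0.39 for Hoxa10 (adjusted p = 0.550). For ESC-Podxl-pA, where 0.339% were called, they were -0.21 ± 0.37 (adjusted p = 0.921), -0.41 ± 0.70 (adjusted p = 0.921) and -0.06 ± 0.37 (adjusted p = 0.982). The reads behind these values were few. Hoxa7 had 18, 14 and 8 reads in ESC-WT E14, 12, 18 and 4 in ESC-Podxl-pA and 10, 7 and 6 in ESC-Grb10-pA. Hoxa10 had 12, 15 and 12, then 9, 26 and 3, and 8, 6 and 13 in the same order, so that all 3 ESC groups overlapped for it. Hoxa9 had 0 to 9 reads in these 9 libraries, Hoxa11 0 to 2 and Hoxa13 1 to 13.

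The effect of Grb10-pA in NPCs was set against that in ESCs by an interaction term. The difference of the effects, NPC minus ESC, was -1.12 ± 0.53 for Hoxa7 (adjusted p = 0.215), -0.83 ± 1.00 for Hoxa9 (adjusted p = 0.682) and -1.36 ± 0.53 for Hoxa10 (adjusted p = 0.120). Of the 3, 2 had an unadjusted p under 0.05 and 0 passed with adjustment in edgeR. This term was called in either direction for 5.9% of all genes. The stages were thus not shown to differ for the 3 genes, although only NPCs gave calls. For Podxl-pA the same terms were -0.82, -0.65 and 0.01, with edgeR adjusted p-values of 0.587, 0.851 and 0.999, where 0.098% of all genes were called.

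**Figure D4:**
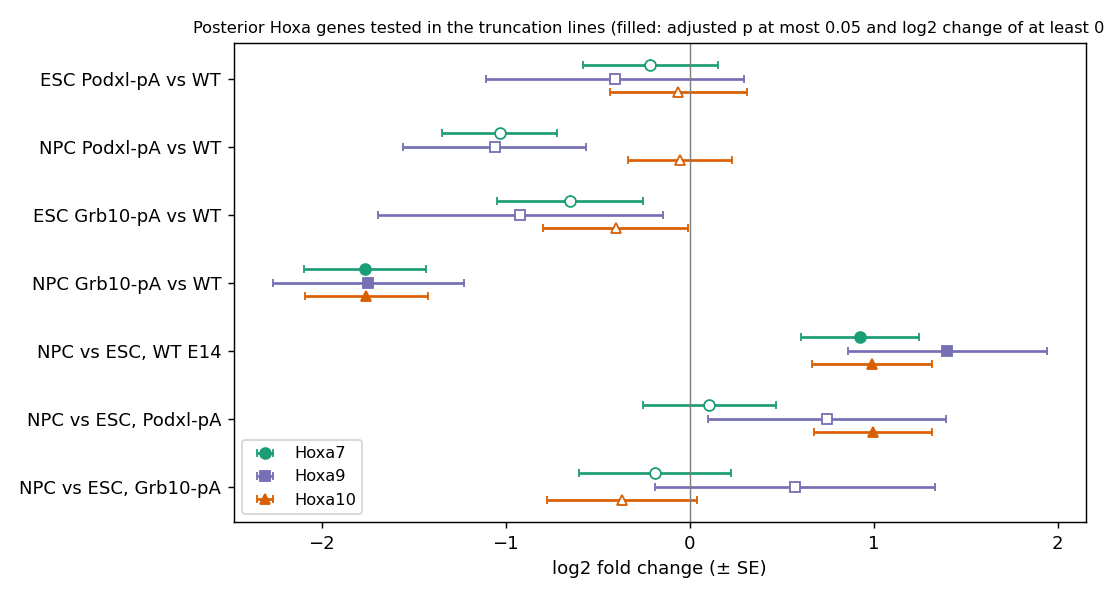
Log2 fold changes (x axis) of Hoxa7, Hoxa9 and Hoxa10 in each truncation comparison and in NPCs against ESCs (y axis), with bars of 1 SE and filled symbols for genes that were called. The values for Grb10-pA in NPCs are -1.76, -1.75 and -1.76, and those for WT E14 NPCs against ESCs are 0.93, 1.40 and 0.99.

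The anterior and central HoxA genes were lower in NPC-Grb10-pA as well, with 4 of 4 called and a median log2 fold change of -0.86 against 0.01 for all genes. Hoxa5 fell by 1.60 ± 0.18 (adjusted p = 3.48e-07), Hoxa3 by 0.86 (adjusted p = 0.00233), Hoxa4 by 0.86 (adjusted p = 0.0178) and Hoxa2 by 0.79 (adjusted p = 0.0322). The count of 4 was 2 with DESeq2, without NPC-WT E14 replicate 2 and without NPC-Grb10-pA replicate 3. In the flanks, Halr1 fell by 0.51 (adjusted p = 0.00579) and Hibadh rose by 0.51 (adjusted p = 0.000195), out of 8 tested. The Halr1 call was lost without NPC-Grb10-pA replicate 1 or NPC-WT E14 replicate 3, and that of Hibadh without NPC-Grb10-pA replicate 3. Of 6 posterior genes of the other clusters, Hoxd13 was called lower at -1.93 (adjusted p = 0.00226), a call that was lost without NPC-WT E14 replicate 2 and with only the 2 groups fitted.

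Of 12 caudal inducers, 5 were called lower in NPC-Grb10-pA and 0 higher, led by Wnt3a at -3.20, Cdx2 at -2.75 and Cdx4 at -1.71. The count of 5 was 3 without NPC-Grb10-pA replicate 1, without NPC-WT E14 replicate 2 and with only the 2 groups fitted. Of 29 Polycomb genes 4 were called higher (2 without NPC-Grb10-pA replicate 1) and 0 lower, of 13 boundary factors 0 by edgeR and DESeq2 with 4 at an unadjusted p under 0.05, and Ctcf was at -0.44 (adjusted p = 5.01e-05), under the fold limit. Markers of other cells moved here too, with 3 of 9 extraembryonic endoderm markers called lower and 0 higher, 4 of 9 mesoderm and caudal epiblast markers lower and 2 higher (Eomes, Hand1), and 4 of 8 neural progenitor markers lower and 1 higher (Sox2). Of 12 pluripotency markers 5 were called higher (Sox2, Nanog, Esrrb, Tfcp2l1, Utf1) and 2 lower, with sums of 7754 to 8315 in NPC-WT E14 and 9212 to 9463 in NPC-Grb10-pA, and of 7 surface ectoderm markers 1 was called higher and 2 lower. The endoderm sums were 2494 to 3256 in NPC-WT E14, 1960 to 2573 in NPC-Grb10-pA and 5319 to 5601 in NPC-Podxl-pA. Their part in the fall of Hoxa7, Hoxa9 and Hoxa10 was not tested. In NPC-Podxl-pA, 0 of the 4 anterior and central HoxA genes and 0 of the 12 caudal inducers were called by edgeR, with 2 and 5 at an unadjusted p under 0.05.

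With differentiation in parental cells, 3 of the 3 posterior Hoxa genes tested were called higher in NPC-WT E14 than in ESC-WT E14, against 16.5% of all genes. Hoxa9 had passed the filter only through NPC libraries, which favours a rise. Hoxa7 went from 18.3, 11.2 and 14.5 to 22.6, 26.4 and 34.6 normalized counts, without overlap, and rose by 0.93 ± 0.32 (adjusted p = 0.0190). Hoxa10 went from 12.2, 12 and 21.7 to 39.3, 26.4 and 20.4, with the lowest NPC library below the highest ESC library, and rose by 0.99 ± 0.33 (adjusted p = 0.0143). Hoxa9 went from 4.07, 7.19 and 3.62 to 21.1, 15.7 and 4.72, also with overlap, and rose by 1.40 ± 0.54 (adjusted p = 0.0353). With DESeq2 none of the 3 passed, with adjusted p-values of 0.0713 for Hoxa7, 0.116 for Hoxa9 and 0.0519 for Hoxa10, and 1 to 2 genes passed when a library was left out. Hoxa11, with no read in ESC-WT E14, was at least 2.75-fold higher, and Hoxa13 went from 5, 9 and 2 reads to 1 in each library. All 4 anterior and central HoxA genes of the list tested were called higher, with a median of 1.78.

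In the Podxl-pA line, 1 of the 3 genes was called higher in NPCs than in ESCs, against 17.1% of all genes. Hoxa10 rose by 1.00 ± 0.32 (adjusted p = 0.0125) without overlap, while Hoxa7 was at 0.11 (adjusted p = 0.832) and Hoxa9 at 0.75 (adjusted p = 0.363). Without ESC-Podxl-pA replicate 1 the Hoxa10 call was lost. In the Grb10-pA line 0 of 3 were called by edgeR or DESeq2 and none had an unadjusted p under 0.05, where 34.6% of all genes were called in either direction. There Hoxa7 was at -0.19 (adjusted p = 0.734), Hoxa9 at 0.57 (adjusted p = 0.559) and Hoxa10 at -0.37 (adjusted p = 0.480). With edgeR, Hoxa10 was thus called higher in NPCs than in ESCs in the parental and Podxl-pA lines and not called in the Grb10-pA line. Both calls could be lost by leaving out a library, and the parental one did not hold with DESeq2. The Hoxa10 interaction of stage and Grb10-pA did not pass (edgeR adjusted p = 0.120), so these lines were not shown to differ.

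Per length, Hoxa7 at 2.08 ± 0.455 RPKM (SD, n = 3) and Hoxa10 at 1.88 ± 0.631 were the highest of the 5 in NPC-WT E14 and did not differ beyond their spread. Hoxa9 at 0.532 ± 0.321, Hoxa11 at 0.282 ± 0.0138 and Hoxa13 at 0.110 ± 0.0416 followed. In NPC-Podxl-pA the order began with Hoxa10 at 1.79 ± 0.0133 and Hoxa7 at 1.06 ± 0.555. In NPC-Grb10-pA, Hoxa7 at 0.621 ± 0.138 and Hoxa10 at 0.570 ± 0.119 were within each other's spread, above Hoxa13 at 0.299 ± 0.0211. The rescue and truncation tables were normalized separately, so levels are not compared between them.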

How the data were processed

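Raw counts of reads per gene were deposited by the authors in 2 tables, one for the 8 rescue libraries and one for the 18 truncation libraries. Per the labels and the methods of the study, rRNA-depleted total RNA was sequenced, reads were aligned with STAR (version not given in the sources used here) to mm10 and counted per gene with featureCounts, without strand. In the truncation table, 3 columns matched no sample and were not used. Each table was fitted separately with edgeR 4.0.16 (R 4.3.3): filterByExpr, TMM factors, 1 mean per group over all libraries of the table, and the quasi-likelihood F test, with Benjamini-Hochberg adjustment over the 16641 and 13268 genes tested. A gene was called at an adjusted p of at most 0.05 and an absolute log2 fold change of at least 0.5, the SE is the log2 fold change divided by the root of F, and fold bounds against groups without reads use 3 reads over the group. Counting intervals are exact (95%) and cover counting error only.

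Replicate numbers come from the labels. Deviations of same-numbered libraries correlated at -0.217 to 0.122 over 12 pairs (rescue) and -0.377 to 0.271 over 45 pairs (truncation), so the numbers were not taken to pair libraries. The study calls the replicates biological, but the labels tie them to no separate cultures, so p-values measure the spread between these libraries. The 5 genes and the gene lists were chosen with earlier results of these data known. Named were the 5 genes, the genes of the HoxA locus, of each other list up to 3 called genes with the largest changes, and the 5 genes most correlated with Hoxa10. Sox1, Nes and Sox2 were named after their values were seen. Marker lists were checked against the labels. The alternatives were RLE factors, other filters, DESeq2 1.42.0, a replicate block, fits of 2 groups only, scaling without chromosome 11 or 8, a stricter threshold, rank correlation and leaving out each library. The scripts were tested on simulated data. Promoter windows are RefSeq sequences of GRCm38.p6. Proteins were not analysed here, and 1 gene of the anterior and central HoxA list is not reported here.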

Additional observations from a re-analysis of the deposited data

How the results depend on the processing

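The 5 posterior Hoxa genes rest on few reads, and 2 libraries per rescue group leave single libraries to decide calls. Over all alternatives, 289 values of tested genes kept their direction and their side of the threshold, 17 lost and 3 gained a call and 7 changed sign. Of the values given without a test, 143 stayed within 1 SD and 19 moved. No alternative shifted the median of all genes by over 0.1.

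For NPC-ΔZF1 against NPC-WT the 3 genes called higher were 2 to 5 when a library was left out, 5 without NPC-WT replicate 1. The median log2 difference in ESC-ΔZF1, 3.69, ranged from 3.14 (without ESC-WT replicate 2) to 3.81, that of NPC-ΔZF1 against ESC-ΔZF1, -0.98, from -1.10 to -0.90, and that of NPC-WT against ESC-WT, 0.08, from -0.10 to 0.30. For NPC-Podxl-pA the 0 genes called were 0 to 1, and for NPC-Grb10-pA the 3 called lower were 2 to 3. For NPC-WT E14 against ESC-WT E14 the 3 called were 0 with DESeq2, 0 at an adjusted p of at most 0.01 and 1 to 2 with a library left out. For NPC-Podxl-pA against ESC-Podxl-pA the 1 called was 0 at an adjusted p of at most 0.01 and 0 to 1 with a library left out. The cause of these moves was not tested, apart from the smaller number of samples that leaving out a library gives.

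Signs turned with a library left out for genes near 0. In ESC-Podxl-pA, Hoxa7 ranged from -0.43 to 0.0154 (without WT E14 replicate 1), Hoxa9 from -0.83 to 0.0318 (without WT E14 replicate 2), and Hoxa10 from -0.67 to 0.17 (without WT E14 replicate 3), with 0.14 and 0.0788 without Podxl-pA replicate 1 and 3. In NPC-Podxl-pA, Hoxa10 ranged from -0.20 to 0.17 (without WT E14 replicate 1), and between the stages of that line Hoxa7 from -0.33 (without NPC-Podxl-pA replicate 1) to 0.33.

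With a replicate block, Hoxa10 rose by 2.65 in NPC-ΔZF1 (edgeR adjusted p = 0.000645), and the number of the 5 genes called was unchanged in each of the 8 tested comparisons. The replicate block changed the count of all genes called in NPC-ΔZF1 from 2936 to 2740. That count was 1222 with only the 2 groups fitted, 5870 without NPC-WT replicate 1, 943 and 968 without NPC-ΔZF1 replicate 1 and 2, and 1455 at an adjusted p of at most 0.01. In ESC-ΔZF1 the 601 genes were 1088 without the filter, 249 without chromosome 11, 1601 with only the 2 groups fitted, 52 at an adjusted p of at most 0.01 and 8 to 21 with a library left out.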
